A study of Mus musculus with 24 samples.

Results

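The Gadd45 genes (growth arrest and DNA damage inducible) are Gadd45a, Gadd45b and Gadd45g. They were matched by gene symbol to the Ensembl gene identifiers of the expression tables, which gave 3 genes of 37310, and all 3 passed the filter on low values. The trio was chosen by measured FPKM values of these samples: on day 4, Gadd45g was lower with epigallocatechin gallate (EGCG) in white cells and higher in brown cells. The day 4 differences with EGCG are therefore given for the 3 genes as a description, without a test.

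The cells were stromal vascular cells, the part of fat tissue that remains once mature adipocytes are removed, from 2 depots of C57BL/6 mice aged 6 weeks: the white fat of the groin (WAT) and the brown fat between the shoulder blades (BAT). The labels name no genetic change in any of the 8 groups, and all were cultured for 4 days in induction medium (insulin, dexamethasone and IBMX) and, for the day 8 groups, for 4 more days in differentiation medium (insulin and T3). The WAT day 4, WAT day 8, BAT day 4 and BAT day 8 groups each existed as a DMSO control and as an EGCG group, EGCG being a catechin of green tea whose dose the labels do not give. Each group held 3 libraries of total RNA, 24 in all, and the labels do not say whether these came from separate isolations, so p-values measure the spread between these libraries, which may be technical. Stromal vascular cells in culture also hold cells other than preadipocytes, and bulk RNA cannot tell fewer cells of a type from less RNA per cell.

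GADD45 proteins are small acidic proteins that are made when cells are stressed. They bind and open the kinase MAP3K4, which leads to the p38 and JNK kinases, and in the nucleus they bind PCNA, the cyclin B1 and CDK1 complex and enzymes of DNA repair and demethylation. Gadd45a is a classical p53 target, Gadd45b is a target of NF-kB and TGF-beta signalling, and Gadd45g is induced by cytokines and, in brown fat, by cold and adrenergic stimulation, where it works through p38 and the nuclear receptor ERR gamma on thermogenic genes.

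In the mouse build NCBIM37 (mm9) with the GENCODE vM1 annotation, Gadd45a (ENSMUSG00000036390.6) lies at chr6:66985090-66987451 on the minus strand, Gadd45b (ENSMUSG00000015312.8) at chr10:80392836-80394949 on the plus strand and Gadd45g (ENSMUSG00000021453.2) at chr13:51942047-51943837 on the plus strand. Each has 1 coding transcript of 4 exons, with 165 codons in Gadd45a, 160 in Gadd45b and 159 in Gadd45g. The longest run of identical bases between any 2 of the 3 coding transcripts was 17 bases (Gadd45a and Gadd45g). Gadd45a shares 859 bases with the non-coding gene E230016M11Rik on the opposite strand, which lay between 0.165 and 0.883 FPKM in the 24 libraries, whereas no annotated gene overlaps the other two.

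The 250 bases before the start of each gene are printed because the members responded differently to EGCG and these windows show how their promoters compare. They come from RefSeq (GRCm38.p6) and read 5′ to 3′ along each gene, at chr6:67037408-67037657 (minus strand) for Gadd45a, chr10:80929841-80930090 (plus strand) for Gadd45b and chr13:51846425-51846674 (plus strand) for Gadd45g, a different build from that of the expression tables. Capitals mark 4 searched motifs: the octamer ATTTGCAT, the CCAAT box, the E-box CACGTG (these on both strands) and the TATA box TATAAA (gene strand only).
Gadd45a: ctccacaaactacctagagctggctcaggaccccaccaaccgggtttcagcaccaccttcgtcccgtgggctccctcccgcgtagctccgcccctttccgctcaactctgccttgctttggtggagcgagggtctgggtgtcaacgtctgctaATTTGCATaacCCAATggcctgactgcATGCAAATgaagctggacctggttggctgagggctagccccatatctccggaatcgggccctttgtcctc
Gadd45b: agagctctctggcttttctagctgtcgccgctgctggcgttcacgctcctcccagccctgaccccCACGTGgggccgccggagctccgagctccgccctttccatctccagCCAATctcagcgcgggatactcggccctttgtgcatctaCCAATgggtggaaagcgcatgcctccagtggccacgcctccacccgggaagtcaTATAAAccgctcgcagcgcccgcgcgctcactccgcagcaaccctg
Gadd45g: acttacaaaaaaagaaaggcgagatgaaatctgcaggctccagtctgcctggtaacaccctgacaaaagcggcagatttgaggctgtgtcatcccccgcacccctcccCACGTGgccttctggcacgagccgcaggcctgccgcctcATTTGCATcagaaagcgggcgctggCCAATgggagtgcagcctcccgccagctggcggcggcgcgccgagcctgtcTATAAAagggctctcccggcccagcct
The octamer, the binding motif of POU factors, occurs in Gadd45a on both strands and in Gadd45g in the forward direction, and is found in 1.6% of 32851 promoter windows. Gadd45b lacks these letters in its window. Gadd45b and Gadd45g both hold an E-box (6.02% of windows) and a TATA box (7.59%), and neither of these letter strings is in the Gadd45a window. CCAAT is in all 3 windows and in 33.8% of all windows. The cyclic AMP response element TGACGTCA (1.55% of windows, both strands) was also searched for and is in no window of the 3. These matches describe letters and not bound sites.

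Levels are given as FPKM, reads scaled to gene length and to the reads of the library, so that levels of the 3 genes can be set side by side. Libraries of replicates 1 and 2 were deposited in 1 table and held 39452696 to 52893848 reads on genes, and replicate 3 stood in a second table, scaled separately, with 16392420 to 41675643 reads. Means, SDs and tests use replicates 1 and 2 (n = 2), and replicate 3 is given beside them. The replicate 3 library of the WAT day 8 EGCG group stood apart, with 61.0% of its reads on 5 genes, which lowers every other value in it. Its values are given as deposited and after rescaling by 2.59 without the 13 genes that dominated it, a step chosen after seeing the data. Control cells of the 2 depots differed in genes that mark the depots. Hoxc10, a posterior gene of inguinal fat, was 7.70 ± 1.14 FPKM (SD, n = 2) in WAT day 4 control and 0.0291 ± 0.0412 in BAT day 4 control. Zic1, a gene of interscapular brown precursors, was 0.0454 ± 0.0299 and 10.6 ± 0.561 FPKM in the same groups. Lhx8, another brown depot marker, differed less, at 18.4 ± 1.28 and 29.8 ± 0.101 FPKM. Of 5 brown depot markers, 3 were called higher in BAT day 4 control by the limma fit described below, and 2 were not called. Ucp1, the uncoupling protein of brown fat, was 6.56 ± 0.579 FPKM in BAT day 8 control and was at 0 in all 3 libraries of both WAT day 8 control and BAT day 8 EGCG. The summed FPKM of 10 mature adipocyte markers lay between 5986 and 6657 in WAT day 8 control and between 10243 and 11034 in BAT day 8 control, and between 623.5 and 732.7 and between 509.9 and 523.2 in the EGCG groups of that day.

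By the means of replicates 1 and 2, Gadd45g was the most abundant member in 7 of the 8 groups. Over all 8 groups it had the widest range, from 18.5 FPKM in WAT day 4 EGCG to 117.7 in BAT day 8 EGCG, a 6.38-fold span. The low end is the group by which the gene was chosen, so the width of this range rests on that choice. Its means in the other 7 groups ran from 57.9 to 117.7 FPKM. In replicate 3 of WAT day 4 control, Gadd45a (66.6 FPKM) and Gadd45g (66.5 FPKM) were nearly level. In WAT day 4 control Gadd45g stood at 62.6, 59.5 and 66.5 FPKM in replicates 1, 2 and 3, and in WAT day 4 EGCG at 19.3, 17.6 and 25.5. In BAT on the same day, the controls were at 57.9, 60.6 and 61.5 FPKM and the EGCG libraries at 87.2, 82.7 and 90.5. Thus every EGCG library of day 4 lay below every control in WAT and above every control in BAT, which is the pattern that singled out the gene. The ratio of the means was 0.302 in WAT and 1.43 in BAT, and the log2 differences, all given here on the log2(FPKM + 1) scale, were -1.67 and 0.51.

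On day 8, the WAT values of Gadd45g were 63.4, 52.3 and 61.0 FPKM in controls and 79.6, 78.5 and 35.9 with EGCG, the last of these being 92.7 after rescaling. In BAT the controls were at 66.8, 62.8 and 70.2 FPKM and the EGCG libraries at 118.2, 117.3 and 142.3. Control and EGCG libraries did not overlap in BAT, nor in WAT once the library that stood apart was rescaled. The 4 control groups lay close together, with means of 57.9 to 64.8 FPKM, whereas the 4 EGCG groups spread from 18.5 to 117.7. The lowest of these is the WAT day 4 EGCG group, by which the gene was chosen.

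Gadd45a reached its highest means in WAT with EGCG, 46.6 FPKM on day 4 and 47.5 on day 8. Its values in WAT day 4 were 40.0, 35.0 and 66.6 FPKM in controls and 47.2, 46.1 and 81.5 with EGCG, which within each table put the EGCG libraries above the controls. In WAT day 8, controls were at 17.9, 9.23 and 21.6 FPKM and EGCG libraries at 46.6, 48.4 and 34.2, the last being 88.4 after rescaling. The 2 WAT day 8 controls of the first table differed from each other by more than replicates 1 and 2 of Gadd45a did in any other group (SD 6.11 FPKM).

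In BAT day 4, Gadd45a was at 15.8, 17.7 and 30.3 FPKM in controls and 26.6, 27.0 and 56.0 with EGCG. In BAT day 8, it was at 18.0, 18.6 and 31.4 FPKM in controls and 29.5, 27.7 and 50.2 with EGCG. EGCG libraries were above controls of the same table on both days. Replicate 3 of Gadd45a was 1.59 to 2.09 times the mean of replicates 1 and 2 in every group (WAT day 8 EGCG rescaled), against 0.935 to 1.20 times for Gadd45b and 1.04 to 1.38 times for Gadd45g, so its levels cannot be set across the tables.

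Over all 8 groups, among them the WAT day 4 EGCG group by which Gadd45g was chosen, Gadd45b had the narrowest span of the trio. It ran from a mean of 16.4 FPKM in BAT day 4 control to 40.9 in WAT day 4 EGCG, a 2.49-fold span. In WAT day 4, its controls were at 30.6, 30.3 and 28.5 FPKM and its EGCG libraries at 43.6, 38.2 and 49.2. In WAT day 8, controls were at 31.6, 33.1 and 34.2 FPKM and EGCG libraries at 29.1, 31.2 and 13.4, the last being 34.6 after rescaling. The groups were thus apart in WAT on day 4 and, on day 8, overlapped after rescaling.

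In BAT day 4, Gadd45b was at 17.0, 15.8 and 15.8 FPKM in controls and 33.0, 33.7 and 33.3 with EGCG. In BAT day 8, it was at 20.0, 21.2 and 22.2 FPKM in controls and 35.7, 35.3 and 37.5 with EGCG. Every EGCG library in BAT exceeded every control of its day, and both BAT control groups lay below all other groups (with the rescaled value for WAT day 8 EGCG).

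**Figure D1:**
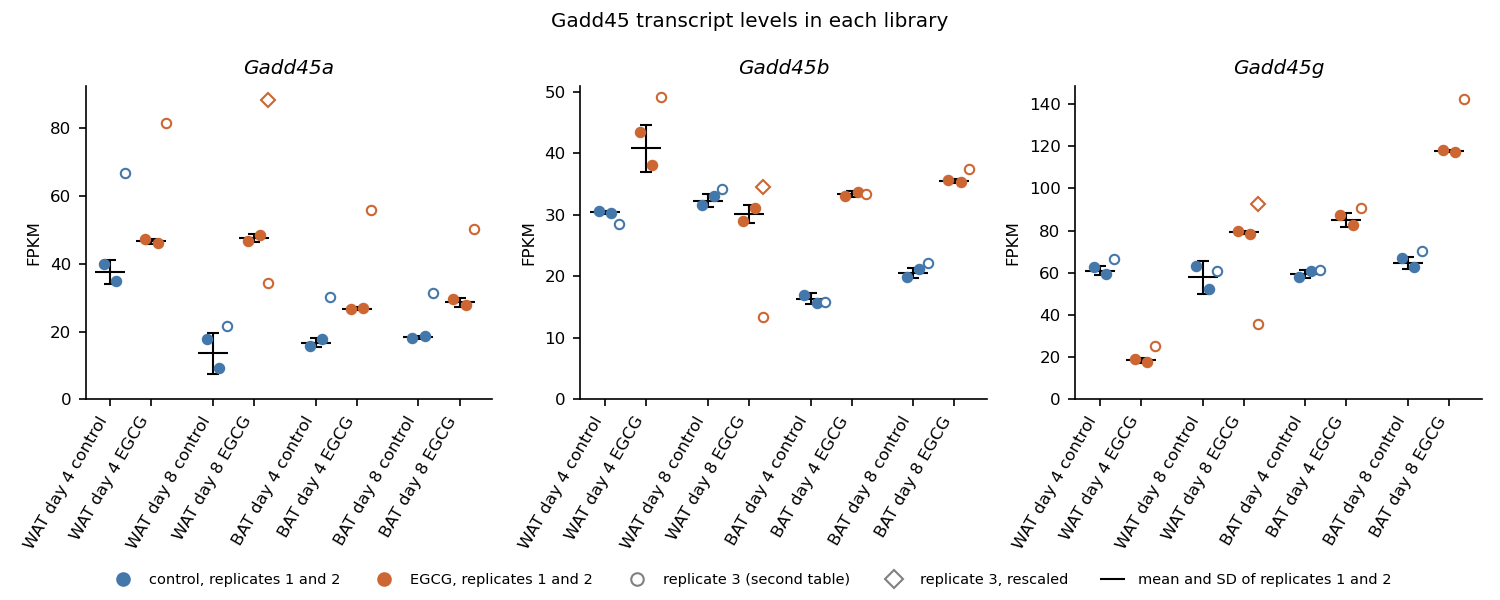
FPKM of Gadd45a, Gadd45b and Gadd45g (y axes) in the 8 groups (x axes), with filled points for replicates 1 and 2, open circles for replicate 3 of the separately scaled second table, a diamond for the rescaled WAT day 8 EGCG library, and bars for the mean and SD of replicates 1 and 2. Gadd45g drops to 18.5 FPKM in WAT day 4 EGCG and reaches 117.7 in BAT day 8 EGCG, and open circles of Gadd45a lie above the filled points except for the unscaled WAT day 8 EGCG library.

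Ordered by mean level over replicates 1 and 2, Gadd45g ran from WAT day 4 EGCG through WAT day 8 control, BAT day 4 control, WAT day 4 control, BAT day 8 control, WAT day 8 EGCG and BAT day 4 EGCG to BAT day 8 EGCG. The libraries of WAT day 8 control overlapped those of BAT day 4 control, WAT day 4 control and BAT day 8 control. Those of BAT day 4 control overlapped those of WAT day 4 control, so the order among the control groups is not fully resolved. Gadd45a was lowest in WAT day 8 control, which overlapped BAT day 4 control, followed by BAT day 8 control, BAT day 4 EGCG, BAT day 8 EGCG and WAT day 4 control, and highest in WAT day 4 EGCG and WAT day 8 EGCG, which overlapped each other. Gadd45b was lowest in BAT day 4 control and BAT day 8 control, followed by WAT day 8 EGCG and WAT day 4 control, which overlapped, WAT day 8 control and BAT day 4 EGCG, which also overlapped, BAT day 8 EGCG and, highest, WAT day 4 EGCG. In replicate 3 alone, the lowest and the highest group were the same for each of the 3 genes, with the rescaled value for WAT day 8 EGCG.

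The summed level of the 3 genes was 92.4 to 129.0 FPKM in the 4 control groups. Gadd45g made up 47.3% of it in WAT day 4 control and 64.1% in BAT day 4 control. In WAT day 4 EGCG the sum was 106.0 FPKM and Gadd45g made up 17.4%, with Gadd45a at 44.0% and Gadd45b at 38.6%. Among the other 3 EGCG groups, the sum on BAT day 4 was 145.1 FPKM, on WAT day 8 156.7 and on BAT day 8 181.9, and Gadd45g made up 50.5% to 64.7%. The lower share of Gadd45g in WAT day 4 EGCG thus stood beside higher means of both paralogs than in the control. These sums and shares leave out replicate 3, where Gadd45a was 1.59 to 2.09 times its mean, so they would differ there. In replicate 3, Gadd45a, Gadd45b and Gadd45g stood at 66.6, 28.5 and 66.5 FPKM in WAT day 4 control. With EGCG they stood at 81.5, 49.2 and 25.5 FPKM.

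**Figure D2:**
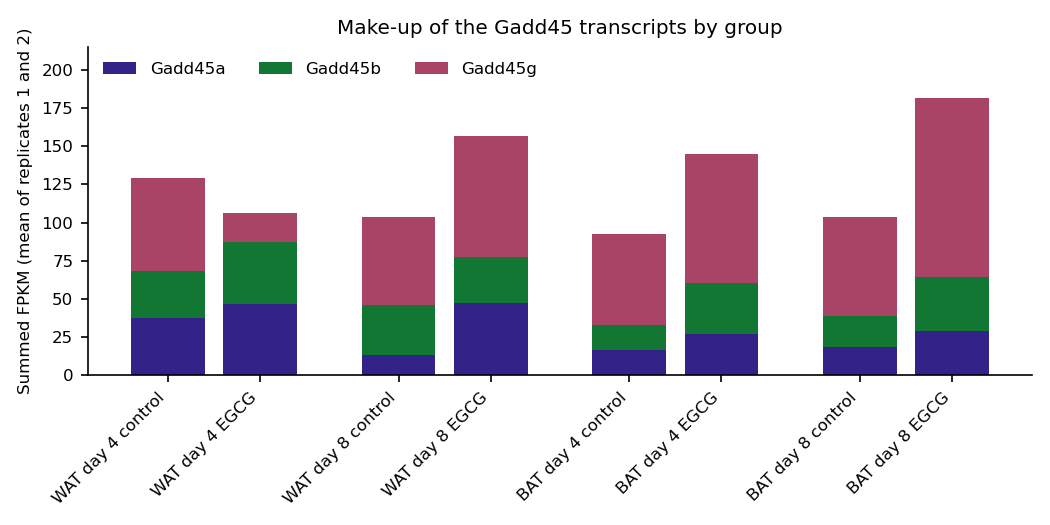
Stacked bars of the summed FPKM of the 3 Gadd45 genes (y axis, mean of replicates 1 and 2) in each group (x axis), coloured by gene. The bar of WAT day 4 EGCG, 106.0 FPKM, is the only EGCG bar below its control (129.0 FPKM), and the Gadd45g section takes 17.4% of it.

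The first question of the design was how EGCG changed expression in each depot. On day 8, which the choice of genes did not use, Gadd45g rose with EGCG in both depots. In WAT the log2 change was 0.45 (SE 0.0758, adjusted p = 2.61e-04 by limma with Benjamini-Hochberg adjustment over all 14095 genes tested) and in BAT 0.85 (SE 0.0758, adjusted p = 7.93e-07), or 1.37 and 1.82 times the control mean in FPKM. The WAT call was lost (log2 change 0.05, adjusted p = 0.912) when both tables were fitted together with the library that stood apart as deposited, and was 0.48 (adjusted p = 5.95e-05) in that fit without it. So the direction in WAT was downward on day 4, as a description, and upward on day 8.

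Gadd45a rose with EGCG on day 8 in WAT by a log2 change of 1.80 (SE 0.196, adjusted p = 7.99e-06), 3.51 times the control mean. The size depended on the 2 unlike controls: the change was 2.25 without WAT day 8 control replicate 1 and 1.36 without replicate 2. The rise of Gadd45a in BAT was 0.62 (SE 0.196, adjusted p = 0.0137), 1.56 times the control mean. The BAT call was lost with median-ratio scaling (0.42, adjusted p = 0.0742), with quantile normalization (0.47, adjusted p = 0.0507), without BAT day 8 control replicate 1 (0.60, adjusted p = 0.0579) and without BAT day 8 EGCG replicate 1 (0.57, adjusted p = 0.0652).

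Gadd45b rose with EGCG on day 8 in BAT by a log2 change of 0.76 (SE 0.0623, adjusted p = 3.80e-07), 1.73 times the control mean. In WAT its log2 change was -0.10 (95% interval -0.24 to 0.04, adjusted p = 0.181), and it was called lower with median-ratio scaling (-0.30, adjusted p = 0.00118) and with quantile normalization (-0.28, adjusted p = 0.00150). In all, 2 of the 3 genes were called in WAT on day 8, where 63.6% of all genes tested were called, 44.7% higher and 18.9% lower. All 3 were called in BAT on day 8, where 72.6% were, 46.5% higher and 26.1% lower. Being called was thus common on this day, and the median log2 change over all genes tested was 0.17 in each depot, against 0.00 and 0.01 with median-ratio scaling.

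**Figure D3:**
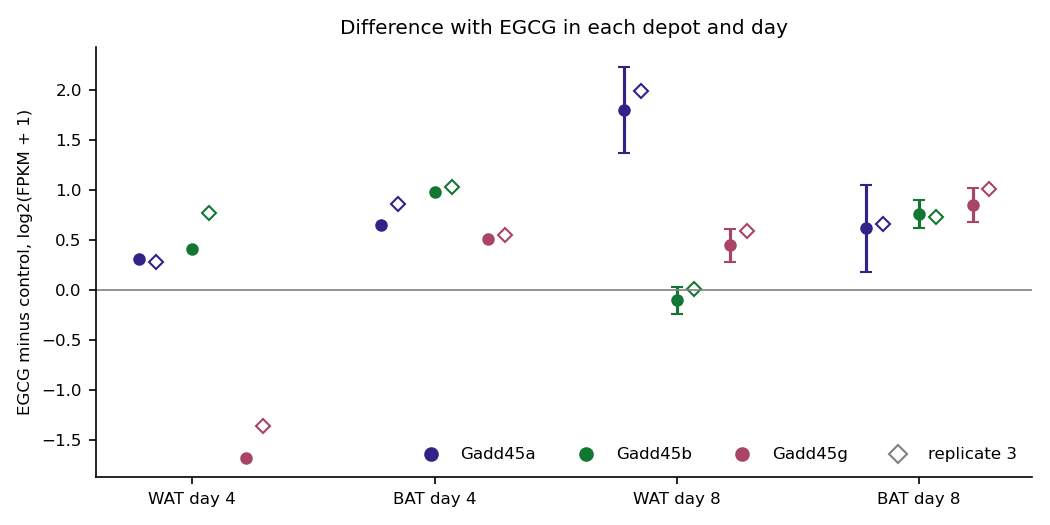
Log2 difference between EGCG and control on the log2(FPKM + 1) scale (y axis) for the 3 genes in each depot and day (x axis), with filled points for replicates 1 and 2, 95% intervals from limma on day 8 where the genes were tested, and open diamonds for the single replicate 3 pair (WAT day 8 EGCG rescaled). Gadd45g is at -1.67 on WAT day 4 and 0.45 to 0.85 elsewhere, and Gadd45b is near 0 on WAT day 8.

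The difference between the depots in the day 8 response was tested directly, and all 3 genes passed (39.2% of all genes tested did). The response of Gadd45b was larger in BAT by a log2 difference of 0.86 (SE 0.0881, adjusted p = 2.29e-05) and that of Gadd45g by 0.40 (SE 0.107, adjusted p = 0.0114). The response of Gadd45a was larger in WAT, with a BAT minus WAT difference of -1.19 (SE 0.278, adjusted p = 0.00557). Without WAT day 8 control replicate 2, the lower of the 2 controls, this difference was -0.74 (adjusted p = 2.36e-04). With both tables fitted together as deposited, the calls were lost for Gadd45a (-0.79, adjusted p = 0.103) and Gadd45g (0.85, adjusted p = 0.0644), and in that fit without the library that stood apart they were -1.21 (adjusted p = 9.97e-05) and 0.42 (adjusted p = 0.00483). Replicate 3 gave differences of the same sign, -1.33 for Gadd45a, 0.71 for Gadd45b and 0.41 for Gadd45g, with the rescaled library.

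On day 4 the log2 differences with EGCG were 0.31 for Gadd45a and 0.41 for Gadd45b in WAT, opposite in sign to the -1.67 of Gadd45g. In BAT they were 0.65 for Gadd45a and 0.98 for Gadd45b, beside 0.51 for Gadd45g. Replicate 3 gave 0.29, 0.77 and -1.35 in WAT and 0.86, 1.03 and 0.55 in BAT, in the order a, b, g. Over all genes tested, 34.4% were called higher and 19.3% lower in WAT on day 4, and 27.9% higher and 20.6% lower in BAT.

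The control groups compare the depots without EGCG. On day 8, Gadd45b was lower in BAT than in WAT by a log2 difference of -0.63 (SE 0.0623, adjusted p = 6.19e-06). Gadd45a differed by 0.48 (95% interval 0.04 to 0.91, adjusted p = 0.0603) and Gadd45g by 0.17 (95% interval 0.00 to 0.33, adjusted p = 0.0851). Both differences hung on the 2 WAT day 8 controls. Without replicate 1 of that group they were 0.92 for Gadd45a and 0.30 for Gadd45g, and without replicate 2 they were 0.033 and 0.030. In this comparison 1 of the 3 genes was thus called, and 53.6% of all genes tested were. On day 4, Gadd45a was lower in BAT by -1.11 (SE 0.196, adjusted p = 5.72e-04) and Gadd45b by -0.86 (SE 0.0623, adjusted p = 1.04e-06), with 55.8% of all genes called. Gadd45g, given as a description, differed by -0.04.

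Between day 4 and day 8, Gadd45a fell in WAT controls by a log2 change of -1.47 (SE 0.196, adjusted p = 4.75e-05), from 37.5 ± 3.55 to 13.6 ± 6.11 FPKM (SD, n = 2). In the WAT EGCG groups it went from 46.6 ± 0.758 to 47.5 ± 1.24 FPKM (log2 change 0.03, 95% interval -0.40 to 0.46, adjusted p = 0.920). In BAT the change of Gadd45a was 0.12 in controls (adjusted p = 0.596) and 0.09 with EGCG (adjusted p = 0.716). Gadd45b rose in BAT controls by 0.31 (SE 0.0623, adjusted p = 8.09e-04), a call lost with both tables as deposited (0.36, adjusted p = 0.174) and kept there without the WAT day 8 EGCG library that stood apart (adjusted p = 3.38e-05). It fell in the WAT EGCG groups by -0.43 (SE 0.0623, adjusted p = 1.05e-04). Its change was 0.08 in WAT controls (adjusted p = 0.269) and 0.09 with EGCG in BAT (adjusted p = 0.247). All genes tested were called in 61% for WAT controls, 69.2% for BAT controls, 59.5% for WAT EGCG and 58% for BAT EGCG. Gadd45g, as a description, went from 18.5 to 79.1 FPKM between the WAT EGCG groups, a log2 difference of 2.04, and differed by -0.08 between the WAT control groups.

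Pathways that surround the Gadd45 genes were followed with 8 gene lists, counted in the EGCG comparisons by the same fit. Each count can be read against the share of all genes called given above. Over all genes tested the median log2 change was 0.09 for WAT and 0.03 for BAT on day 4, and 0.17 for either depot on day 8. Of 25 p53 target genes, 22 rose and 1 fell in WAT on day 4 (median log2 change 1.11), 20 rose and 2 fell in BAT on day 4 (1.0), 21 rose and 3 fell in WAT on day 8 (1.16), and 18 rose and 3 fell in BAT on day 8 (1.12). Mdm2, the ubiquitin ligase that restrains p53, rose on day 8 from 29.3 ± 2.71 to 112.1 ± 3.24 FPKM in WAT (SD, n = 2; log2 change 1.90, adjusted p = 4.51e-09) and from 31.6 ± 1.27 to 190.9 ± 7.06 FPKM in BAT (2.56, adjusted p = 1.41e-10). Pmaip1, which encodes the death protein NOXA, rose on day 8 by 2.46 in WAT (adjusted p = 3.18e-09) and 3.63 in BAT (adjusted p = 5.16e-11). Cdkn1a, the cell cycle inhibitor p21, rose on WAT day 4 from 42.0 ± 2.65 to 206.0 ± 16.5 FPKM (2.27, adjusted p = 4.32e-10). Sesn1, an antioxidant stress protein, fell in all 4 comparisons (-0.62 in WAT and -0.64 in BAT on day 4, -0.81 and -1.20 on day 8; largest adjusted p 0.00223), and Ddb2, a DNA repair gene, fell in BAT on day 4 and in both depots on day 8. Trp53, the gene for p53 itself, rose from 17.2 ± 0.891 to 30.0 ± 1.29 FPKM in WAT and from 14.4 ± 0.476 to 35.4 ± 2.30 in BAT on day 8.

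The kinases that GADD45 proteins act on are regulated mainly by phosphorylation, which RNA levels do not show. Of 18 genes of the stress kinase route, 9 rose in WAT on day 4 while the other 9 did not pass (median 0.23), 7 rose and 2 fell in BAT on day 4 (0.11), 14 rose and 1 fell in WAT on day 8 (0.24), and 14 rose and 3 fell in BAT on day 8 (0.33). With median-ratio scaling 5 rose and 4 fell, 6 and 2, 7 and 2, and 8 and 3 in the same order, so these counts depend on the scaling. Map3k4, the kinase bound by GADD45 proteins, was low (1.51 to 3.46 FPKM) and on day 8 its log2 change was 0.41 in WAT (adjusted p = 0.00173) and 0.39 in BAT (adjusted p = 0.00170). Mapk14, which encodes p38 alpha, changed by -0.12 in WAT (adjusted p = 0.118) and fell by 0.38 on the log2 scale in BAT on day 8. Jun, the JNK substrate, rose in WAT from 29.9 to 43.3 FPKM and in BAT from 33.0 to 64.6 on day 8 (log2 change 0.53 and 0.95).

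Among 13 tested nuclear partners of GADD45 proteins, 3 rose and 8 fell in WAT on day 4 (median -0.22), against 3 and 4 in BAT on day 4 (-0.07), 5 and 2 in WAT on day 8 (0.10) and 5 and 3 in BAT on day 8 (0.08). Ercc5, the nuclease XPG of DNA repair, rose in all 4 comparisons by 0.71 to 0.84. In WAT on day 4, where Gadd45g was low, the mitotic genes Cdk1 (11.7 ± 0.268 to 6.99 ± 0.0553 FPKM, log2 change -0.66, adjusted p = 3.59e-05), Ccnb1 (-0.65, adjusted p = 1.95e-04) and Ccnb2 (-0.78, adjusted p = 3.34e-05) fell. In BAT on day 4, Cdk1 changed by 0.05 (adjusted p = 0.671) and Ccnb1 by -0.17 (adjusted p = 0.174). Pcna, the replication clamp, rose in BAT on day 4 (0.22) and on day 8 in WAT (0.29) and BAT (0.22). The median over all genes tested was 0.03 in BAT on day 4 and 0.17 in either depot on day 8, so the day 8 rises were small beside it. With median-ratio scaling, 1 nuclear partner rose and 3 fell in WAT on day 8, and 3 rose and 4 fell in BAT.

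The list of ERR receptors and thermogenic genes, the arm on which GADD45 gamma acts in brown fat, fell in BAT on day 8, where Gadd45g rose. On that day all 9 tested members fell (median -1.77), among them Adrb3, the beta-3 adrenergic receptor, from 97.8 ± 5.44 to 4.42 ± 0.106 FPKM (log2 change -4.19, adjusted p = 3.34e-11), and Ucp1, from 6.56 FPKM to 0. The direction was the same in replicate 3 for 8 of the 9. Ppargc1b, a coactivator of ERR receptors, fell by 2.48 and Esrra, the receptor ERR alpha, by 0.77 on the log2 scale. On BAT day 4, 1 rose and 5 fell. In WAT, 3 rose and 4 fell on day 4 (1 and 4 with median-ratio scaling or quantile normalization), and 1 rose and 4 fell on day 8. Esrrg was not among the genes that passed the filter.

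Of 15 tested NF-kB response genes, 6 rose and 2 fell in WAT on day 4 (median 0.23), 8 rose in BAT on day 4 and the other 7 did not pass (0.29), 5 rose and 4 fell in WAT on day 8 (-0.08), and 9 rose and 3 fell in BAT on day 8 (0.47). The counts for WAT day 8 were 2 and 5 with median-ratio scaling. Ccl2, a monocyte chemokine, rose in BAT from 9.24 to 32.0 FPKM on day 4 and from 5.41 to 37.9 on day 8. Of 16 genes of the TGF-beta and BMP response, 9 rose and 5 fell in WAT on day 4 (median 0.28), 13 rose and 1 fell in BAT on day 4 (0.65), 11 rose and 3 fell in WAT on day 8 (0.78), and 12 rose and 2 fell in BAT on day 8 (0.95). With median-ratio scaling the WAT day 4 count was 6 higher and 6 lower (median 0.17). Ctgf and Cyr61, matricellular genes, fell in WAT on day 4 (-0.96 and -1.38) and rose in BAT on day 4 (2.76 and 1.30), the same signs as Gadd45g.

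Ddit3 and Ppp1r15a share the growth arrest and DNA damage name (Gadd153 and Gadd34) but encode a bZIP factor and a phosphatase subunit of the integrated stress response. Ddit3 rose on day 8 from 42.1 ± 13.3 to 96.0 ± 0.583 FPKM in WAT (log2 change 1.20, adjusted p = 1.72e-05) and from 68.2 ± 4.06 to 105.9 ± 2.74 in BAT (0.63, adjusted p = 0.00188). Ppp1r15a rose in WAT on day 8 from 12.1 ± 0.654 to 25.0 ± 0.150 FPKM (0.99) and changed by 0.07 in BAT (adjusted p = 0.433). On day 4, Ppp1r15a rose in BAT (0.31, adjusted p = 0.00589) and changed by -0.16 in WAT (adjusted p = 0.103), and Ddit3 changed by 0.35 in WAT (adjusted p = 0.0578) and -0.15 in BAT (adjusted p = 0.427). Of 14 genes of the integrated stress response, 5 rose and 3 fell in WAT on day 4, 7 and 3 in BAT on day 4, 9 and 2 in WAT on day 8, and 4 and 6 in BAT on day 8 (median 0.15, 0.23, 0.36 and -0.26). Atf3 rose in all 4 (0.81, 1.41, 1.88 and 1.32), whereas Trib3 fell in BAT on day 8 by 2.65 on the log2 scale.

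Of 13 transcription factors known to act on Gadd45 promoters, 6 rose and 1 fell in WAT on day 4, 6 and 2 in BAT on day 4, 3 and 3 in WAT on day 8, and 4 and 5 in BAT on day 8 (median 0.19, 0.16, -0.05 and -0.19). With median-ratio scaling, 3 rose and 1 fell in WAT on day 4, and 2 rose and 6 fell in WAT on day 8. Cebpa, an adipogenic factor, fell in all 4 comparisons (log2 change -1.72 to -2.98). Egr1 rose in BAT from 51.6 to 123.6 FPKM on day 4 and from 106.4 to 201.8 on day 8. Foxo1 fell on day 8 from 7.21 to 3.60 FPKM in WAT and from 16.9 to 5.52 in BAT.

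**Figure D4:**
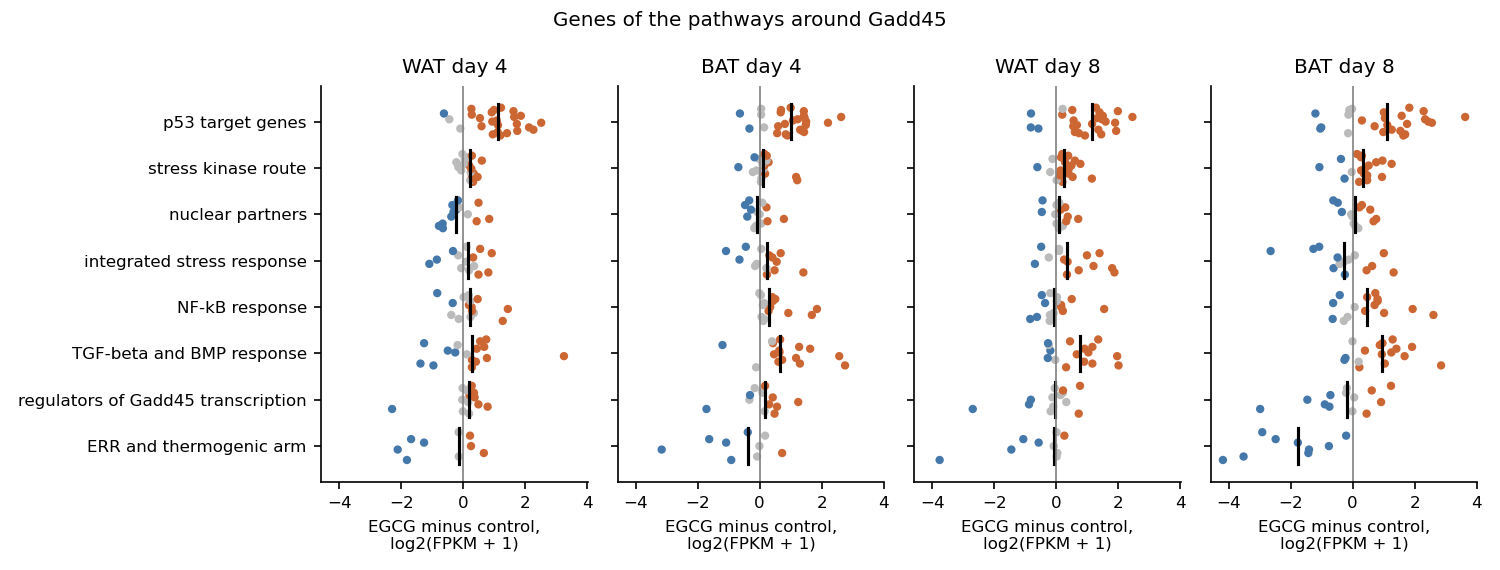
Log2 difference between EGCG and control on the log2(FPKM + 1) scale (x axes) for the genes of 8 lists (y axis) in the 4 EGCG comparisons, 1 point a gene, orange where called higher, blue where called lower and grey otherwise, with a black line at the list's median. The p53 target genes have medians of 1.0 to 1.16 in the 4 panels, and the ERR and thermogenic genes a median of -1.77 in BAT on day 8.

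Markers of cell types moved with EGCG as well. All 10 mature adipocyte markers fell in each of the 4 comparisons (median log2 change -2.54 in WAT and -2.02 in BAT on day 4, -4.40 and -3.86 on day 8). Of 7 tested macrophage markers, 6 rose in WAT and 5 in BAT on day 4, and all 7 fell in each depot on day 8, with a summed FPKM of 116.3 to 142.4 in WAT day 8 controls and 54.6 to 65.0 with EGCG, and of 118.6 to 131.3 and 56.0 to 58.5 in BAT. Of 6 tested endothelial markers, 5 rose in WAT and 6 in BAT on day 4, and 4 and 6 on day 8. All 5 tested skeletal muscle markers rose in WAT on day 4 (median 0.68), where their summed FPKM was 55.0 to 58.5 in controls and 97.1 to 101.9 with EGCG. In BAT on day 4 the 5 did not pass (median 0.15, summed FPKM 14.2 to 22.3 in controls and 19.6 to 26.5 with EGCG). On day 8, 1 muscle marker rose in WAT and 2 fell in BAT, whereas with median-ratio scaling 1 fell in WAT and 3 fell in BAT. The 3 Hox genes that mark the white depot fell in WAT on day 4 (median -0.32) and rose there on day 8 (median 0.40), where 1 of them rose with median-ratio scaling. In BAT on day 8, 2 of the 3 rose. Of 5 brown depot markers, 1 rose and 1 fell in WAT on each day, 2 fell in BAT on day 4, and 2 rose and 3 fell in BAT on day 8. No macrophage, endothelial or skeletal muscle marker was at 0 in all libraries of a group. The part of these cell types in the values of the Gadd45 genes was not tested.

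Genes whose pattern was most like each member were found by Pearson correlation of log2(FPKM + 1) over the 16 libraries of replicates 1 and 2, among 10201 genes. These libraries are 8 groups of 2 and share the treatment contrast, so the values are descriptions. For Gadd45a they were Tgoln1 (r = 0.94), Atf4 (0.90), the central factor of the integrated stress response, Mex3b (0.89), Dact1 (0.89) and Pramef8 (0.89), and r was 0.86 to 0.92 over the 8 libraries of replicate 3. For Gadd45b they were Agap1 (0.92), Ifi30 (0.91), Itgb3 (0.89), Rnd3 (0.89) and Apbb1ip (0.88), with Spearman's rho of 0.49 to 0.82. For Gadd45g they were Atp10a (0.93), BC046404 (0.91), Bok (0.90), Reep5 (0.89) and Rexo2 (0.89), with r of 0.89 to 0.92 in replicate 3. Among the members, r was 0.52 between Gadd45a and Gadd45b, -0.21 between Gadd45a and Gadd45g and -0.20 between Gadd45b and Gadd45g, and 0.55, -0.08 and -0.17 in replicate 3. Spearman's rho over the 16 libraries was 0.42, 0.09 and 0.07 in the same order. The values for the pairs with Gadd45g thus changed sign by rank.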

How the data were processed

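RNA of 24 libraries was sequenced. The authors deposited FPKM values in 2 separately scaled tables of 37310 genes (build mm9). Their processing notes name FastQC 0.11.9, HISAT2 2.2.0 and HTSeq 0.11, and use of strand in counting is not given in the sources used here. Each FPKM times gene length was a whole multiple of 1 read (100% of values within 0.01), which gave the reads behind each value.

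Groups came from the sample labels. With a pseudocount of 1, log2(FPKM + 1) of the 16 libraries of replicates 1 and 2 was fitted in limma 3.58.1 (R 4.3.3, eBayes with trend, 8 residual degrees of freedom, 11.4 with the prior) for genes with FPKM of at least 1 in at least 2 libraries (14095 genes). Tests were two-sided, with Benjamini-Hochberg adjustment within each of 11 contrasts and a call at 0.05. Log2 changes on this scale understate changes of low genes. The fit was tested on simulated reads, in which 93.3% of 193 changed genes and 6 other genes were called among 13143. The share of changed genes there was far below the 63.6% (WAT) and 72.6% (BAT) called with EGCG on day 8. The simulation therefore cannot show how the fit performs when most genes change.

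The Gadd45 genes and the gene lists were chosen with earlier results of these data known, and Sesn2, Atf4, Cebpa and thermogenic genes stand in more than 1 list. From each pathway list, up to 4 called genes with the largest change, a mean FPKM of 5 and the same direction in replicate 3 could be named. Trp53, Map3k4, Mapk14, Pcna, Esrra, Sesn1 and Ddb2, and some values of other list genes, were named outside that rule after their values were seen. Tables were read with Python 3.11.15. Alternatives were other scalings, pseudocount, filters, voom on recovered reads, both tables, a replicate block and leaving out each library.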

Additional observations from a re-analysis of the deposited data

Results flagged for a closer look

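Effects of EGCG that differed between the depots were picked out by the test of the difference itself. On day 8 the BAT minus WAT difference in log2 change was -1.19 for Gadd45a, 0.86 for Gadd45b and 0.40 for Gadd45g, each past the adjusted threshold of limma. For Gadd45g on day 4, every EGCG library of replicates 1 and 2 was below the controls in WAT and above them in BAT, with a BAT minus WAT difference of 2.19. That difference was not tested, because it is the pattern by which the gene was chosen.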

How the results depend on the processing

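Of 320 alternatives for the log2 changes of the 3 genes, 303 kept the side of the threshold, and the other 17 are given here. A change of direction was counted only where the main or the alternative value was called. The uncalled change of Gadd45a between days in WAT EGCG ran from -0.39 to 0.06 over its alternatives, so its direction was not kept. Median-ratio scaling and quantile normalization gave -0.30 and -0.28 for Gadd45b with EGCG in WAT on day 8 (called lower), and 0.42 and 0.47 for Gadd45a with EGCG in BAT on day 8 (call lost). A filter at FPKM 5 gave 0.48 for Gadd45a between depot controls on day 8 (adjusted p = 0.0487). Both tables as deposited gave 0.050 for Gadd45g with EGCG in WAT on day 8, -0.79 and 0.85 for the depot difference of Gadd45a and Gadd45g, and 0.36 for Gadd45b between days in BAT controls, all with the call lost. With WAT day 8 EGCG replicate 3 left out or rescaled these calls were kept, and the depot control difference on day 8 was called for Gadd45a (0.49) and Gadd45g (0.18). Leaving out single libraries gave 0.57 to 0.66 for Gadd45a with EGCG in BAT on day 8, and 0.033 to 0.92 for Gadd45a and 0.030 to 0.30 for Gadd45g between depot controls on day 8.

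Genes called fell with both tables as deposited to 3081 (WAT) and 2671 (BAT) for EGCG on day 4, against 7567 and 6838. They fell to 3750 and 6723 on day 8, against 8962 and 10231, and to 2128 for the depot difference, against 5520. Between depot controls they fell to 2852 on day 8 and 2556 on day 4, against 7555 and 7867. Between days they were 4107 in WAT controls, 5606 in BAT controls and 3630 in BAT EGCG, against 8591, 9751 and 8171. In both-table fits the cause was not tested. Of all calls, the share that was higher went with median-ratio scaling from 64.1% to 47.0% for WAT day 4, 70.3% to 50.6% for WAT day 8, 64.0% to 51.1% for BAT day 8, 74.3% to 50.6% for depot controls on day 4 and 41.5% to 55.3% for days in BAT controls. With quantile normalization it was 52.5% for WAT day 4 and 54.4% for depot controls on day 4.

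No effect shared by replicate number was seen: over 28 pairs of groups the correlation of the difference between replicates 1 and 2 was -0.08 to 0.08. This cannot show whether libraries of the same number came from the same isolation. A replicate block gave 1.80 for Gadd45a, -0.10 for Gadd45b and 0.45 for Gadd45g with EGCG in WAT on day 8, and changed no call of the 3 genes. List counts moved by over 1.5 times in 26 of 128 alternatives. Of the 5 genes most like Gadd45b and Gadd45g, 3 and 2 were among the 50 most like by Spearman correlation. With 2 libraries a group, precision rests on the spread shared by all groups.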
